A study of Homo sapiens with 6 samples.

Results

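The 46 genes described here encode the DNA replication machinery, from the proteins that license replication origins to the enzymes that supply nucleotides. They were taken by gene name from a count table of 58735 genes, and all 46 were found there. The table held RNA sequencing counts from NCI-N87, an established human gastric cancer cell line, under a pair of conditions. In 3 libraries the cells carried the vector PLVX-IRES-Puro with EGLN3, a prolyl hydroxylase known for its action on hypoxia-inducible factors. In 3 libraries the cells carried the empty PLVX-IRES-Puro vector, and cells of both groups were selected with puromycin for 7 days. The labels give 1 day with the plasmid before selection for 5 libraries and 5 days for EGLN3 vector replicate 3. The labels do not say whether the selected cells were a pool or a clone, and EGLN3 counts do not separate plasmid from native transcripts. Nor do they say that replicates were separate cultures, so the p-values here measure no more than how these libraries vary, perhaps for technical reasons.

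DNA replication starts at origins, where the origin recognition complex, CDC6 and CDT1 load the MCM2-7 helicase onto DNA in G1 phase. CDC45 and the GINS complex switch the helicase on in S phase, and polymerases alpha, delta and epsilon then copy the strands. PCNA serves as a sliding clamp, with replication factor C (RFC) as its loader. Most of these genes are transcribed in dividing cells around the G1 to S transition, many of them under E2F transcription factors, and several are used as proliferation markers in gastric and other tumours.

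Library totals lay between 15157265 and 16767383 counts, and 15726 genes had enough counts to be tested. EGLN3 itself measured 481, 1640.4 and 1717 CPM in the EGLN3 vector libraries, against 0.582, 0.702 and 0.565 CPM in the empty vector libraries, where CPM are counts scaled to library size with TMM factors. By edgeR's quasi-likelihood test its log2 fold change was 11 (SE 0.72) with an adjusted p of 0.031, a call that was lost in 5 of the 6 fits made with 1 library left out. The 5 adjusted p-values in edgeR were 0.15 and 0.065 without EGLN3 vector replicates 2 and 3, and 0.40, 0.67 and 0.56 without empty vector replicates 1, 2 and 3. The first principal component of log2 CPM held 70.0% of the variance and did not follow the groups. EGLN3 vector replicate 1 scored 59.4 on it and replicates 2 and 3 scored -23.3 and -45.9, while empty vector replicates 1, 2 and 3 scored -36.2, 11.5 and 34.4. Epithelial markers summed to 5792 to 11543 FPKM (counts scaled to gene length and library) in the EGLN3 vector libraries and 6765 to 9576 FPKM in the empty vector libraries. All 6 fibroblast markers and all 5 endothelial markers were below 1 FPKM in each of the 6 libraries, with COL1A2 and LUM listed at 0. Of the leukocyte markers, PTPRC, CD3E and CSF1R were also below 1 FPKM in each library, while CD14 reached 2.06 FPKM and LYZ 2.40 FPKM in their highest library.

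All 46 replication genes had enough counts to be tested. Of the 46, 32 had a lower fitted level and 14 a higher one in EGLN3 vector cells, and the median log2 fold change was -0.09, against 0.01 over all 15726 tested genes, of which 47.8% were lower. No member passed the test (edgeR quasi-likelihood test, adjusted p under 0.05), nor did any by DESeq2 or limma-voom, and 0.00636% of all tested genes did. At an unadjusted p under 0.05 edgeR listed 1 member, POLD1, among 174 genes (1.11%). The 3 EGLN3 vector libraries lay fully below the 3 empty vector libraries for 6 members, and fully above them for 0 members. These 6 were MCM3, POLD1, PRIM1, RPA1, LIG1 and CHAF1A, or 13.0% of the members, while 3.62% of all tested genes lay apart in that direction, 2.64% in the other and 6.26% in either.

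The precision of each fold change limits what these values can show. Standard errors of the log2 fold changes ran from 0.12 to 0.55, with a median of 0.17. The 95% interval lay within 1 log2 unit of no change for 43 members and within 0.5 log2 units for 18, and it left out 0 for POLD1 alone. The lowest count of any member in any library was 120, for which counting error alone gives a coefficient of variation of 9.13%. Since each library is bulk RNA, fewer cells in S phase and less RNA per cell cannot be told apart.

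**Figure D1:**
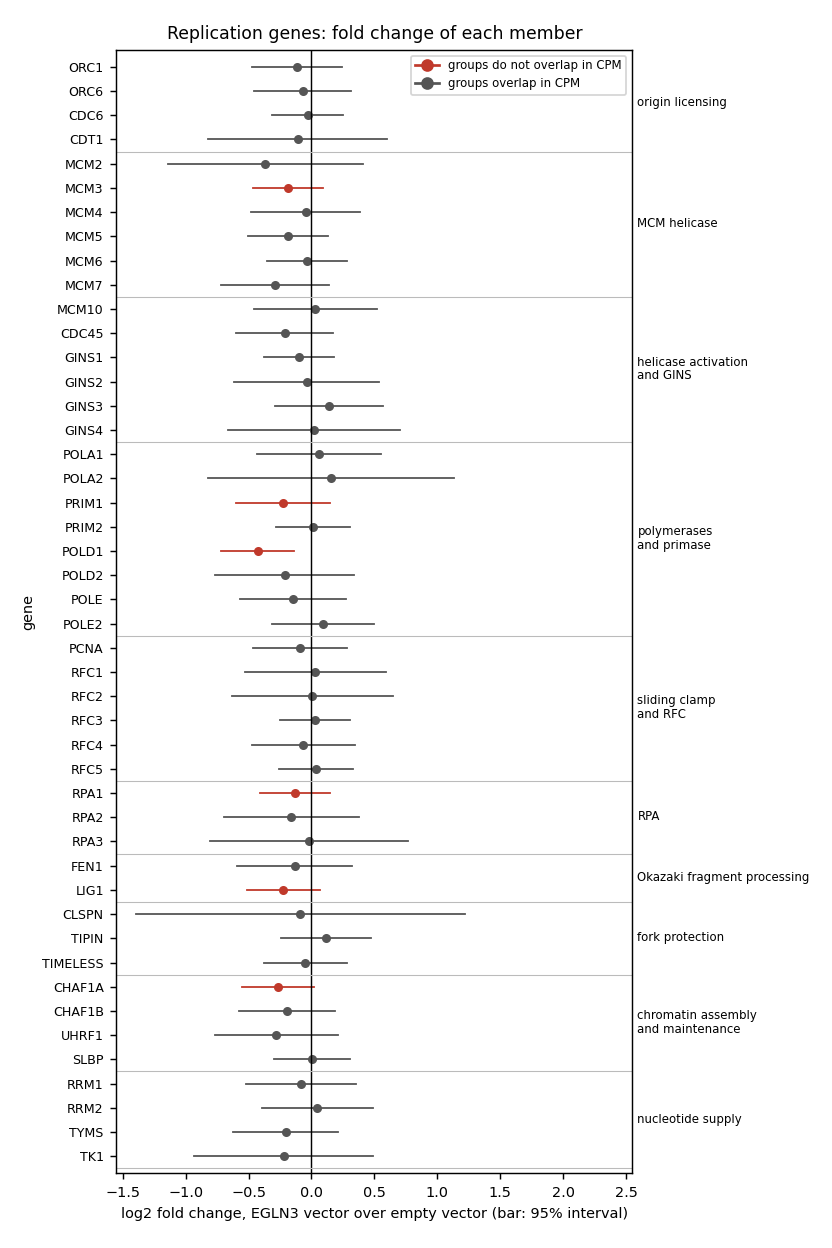
Log2 fold change of each of the 46 replication genes, EGLN3 vector over empty vector, with its 95% interval from edgeR, grouped by role. The 6 genes in red had no overlap between the CPM of the 3 libraries of each group, and POLD1 is the gene whose interval leaves out 0.

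The median of the members' deviations from their own 6-library mean, in log2 units, was -0.02, -0.04 and -0.05 in EGLN3 vector replicates 1, 2 and 3. It was 0.03, 0.12 and 0.08 in empty vector replicates 1, 2 and 3. Each EGLN3 vector library was below each empty vector library by this median. The same held over all tested genes, by less, with medians from -0.00163 to 0.00673 in the EGLN3 vector libraries and from 0.00897 to 0.0145 in the empty vector libraries. By role group it held for polymerases and primase, chromatin assembly and maintenance, and nucleotide supply. In the other role groups these medians overlapped. For the MCM helicase, EGLN3 vector replicate 2 (0.005) was above empty vector replicate 3 (-0.048). Without empty vector replicate 2 the median log2 fold change was -0.04 with 28 members lower, and without EGLN3 vector replicate 1 it was -0.08 with 29 lower.

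**Figure D2:**
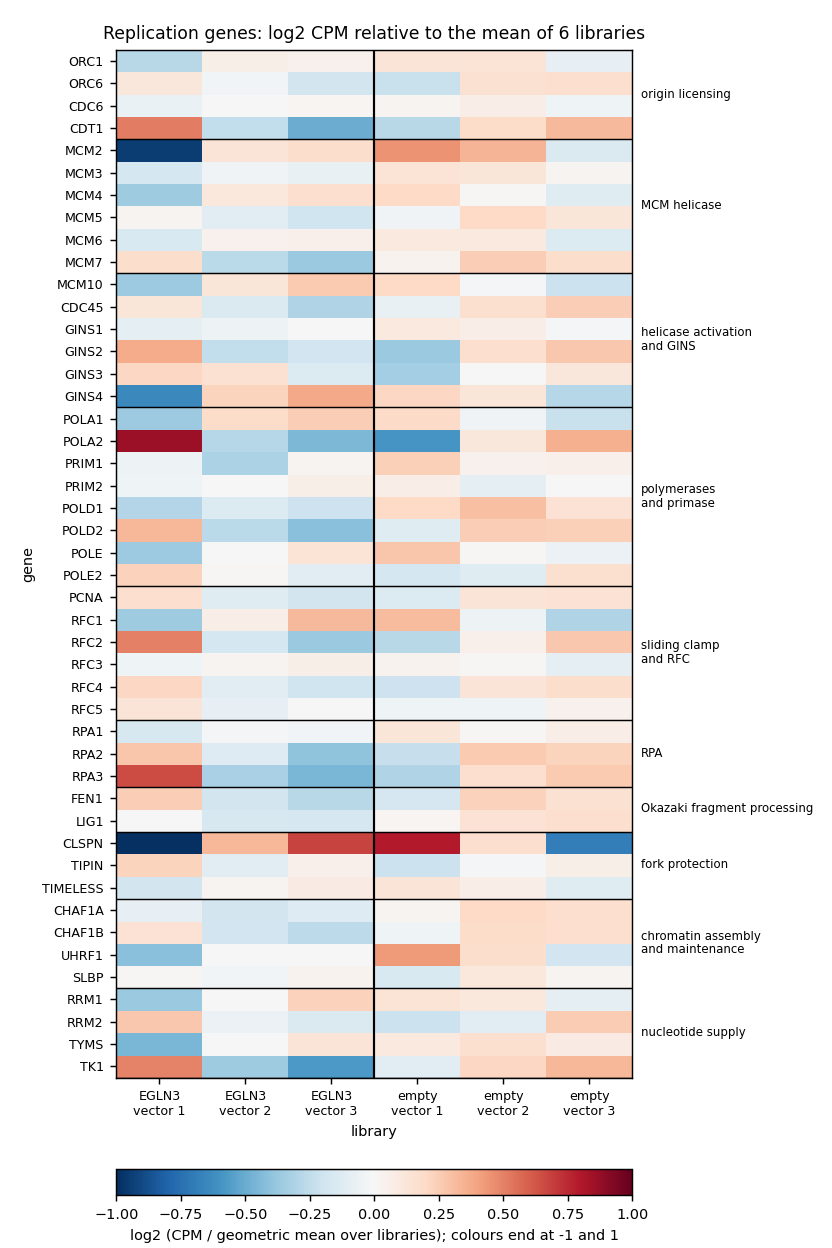
Log2 CPM of each replication gene in each library relative to the gene's geometric mean over the 6 libraries, EGLN3 vector libraries left of the line and empty vector libraries right of it; colours end at -1 and 1. EGLN3 vector replicates 2 and 3 and empty vector replicate 1 share many colours, as do EGLN3 vector replicate 1 and empty vector replicate 3, and CLSPN, POLA2 and RPA3 show the contrast most.

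Promoter windows from RefSeq (GRCh38.p14, from 250 bases before to 50 bases after a transcription start) were held by 41 of the 46 members, in 53 windows; MCM4, MCM5, GINS4, RPA2 and RPA3 had none in the table used. They were searched on both strands for the E2F-type letters TTTCCCGC, TTTGGCGC, TTTCGCGC and TTTGCCGC, and for the CCAAT box. An E2F-type match was present for 20 of 41 members (48.8%), against 1090 of 27305 genes (3.99%) with windows of the same length. CCAAT was present for 26 of 41 members (63.4%), against 10846 genes (39.7%). Of the 20 members with E2F-type letters 14 were lower in EGLN3 vector cells (median -0.09 on the log2 scale), and of the 21 without them 14 were lower (median -0.08). A match is a description of the letters and not evidence of a bound factor.

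MCM6, MCM7 and MCM3 are helicase subunits with a window that holds several of these letters. POLD1 is the member with the largest fitted change between the groups in the edgeR fit described so far. Shown next are the 250 bases before a start of each gene. They lie at chr2:135876444-135876693 (minus strand, MCM6), chr7:100101398-100101647 (minus strand, MCM7), chr6:52284743-52284992 (minus strand, MCM3) and chr19:50384073-50384322 (plus strand, POLD1). Each is written 5′ to 3′ on the gene's strand, with capitals marking matches on either strand.
MCM6: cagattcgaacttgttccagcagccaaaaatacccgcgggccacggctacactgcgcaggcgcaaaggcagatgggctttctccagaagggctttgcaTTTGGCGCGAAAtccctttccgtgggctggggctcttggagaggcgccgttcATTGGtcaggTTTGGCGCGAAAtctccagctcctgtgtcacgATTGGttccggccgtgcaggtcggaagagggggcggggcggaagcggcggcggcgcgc
MCM7: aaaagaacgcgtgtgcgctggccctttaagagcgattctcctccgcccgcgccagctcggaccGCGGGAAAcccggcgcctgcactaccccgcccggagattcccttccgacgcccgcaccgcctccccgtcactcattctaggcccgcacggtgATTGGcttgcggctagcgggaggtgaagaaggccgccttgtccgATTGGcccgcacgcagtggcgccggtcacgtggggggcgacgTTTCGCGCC
MCM3: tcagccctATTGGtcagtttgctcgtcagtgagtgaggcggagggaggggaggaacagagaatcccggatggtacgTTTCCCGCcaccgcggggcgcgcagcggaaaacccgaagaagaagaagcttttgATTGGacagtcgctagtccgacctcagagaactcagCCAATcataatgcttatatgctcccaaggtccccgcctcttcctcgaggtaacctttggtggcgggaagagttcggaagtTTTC
POLD1: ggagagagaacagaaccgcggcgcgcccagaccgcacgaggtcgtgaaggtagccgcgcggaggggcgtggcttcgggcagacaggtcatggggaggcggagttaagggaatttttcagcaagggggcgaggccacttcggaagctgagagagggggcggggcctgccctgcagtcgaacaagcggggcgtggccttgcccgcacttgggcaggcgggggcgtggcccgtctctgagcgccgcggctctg
In MCM6 the E2F-type matches began at -152, -148, -90 and -86 relative to the start, as overlapping pairs of TTTGGCGC on the gene's strand and TTTCGCGC on the other. The printed MCM7 stretch had TTTCCCGC on the other strand at -187 and TTTCGCGC at -9. It ends inside a CCAAT match that runs past the start, so the last letters of that match are not printed. Other MCM7 windows, with stretches from chr7:100100530 and chr7:100100755, held no E2F-type match. MCM3 had TTTCCCGC at -174 and a TTTCGCGC at -4 that runs past the start, so its last letters are not printed. The printed POLD1 window held none of the E2F-type letters and no CCAAT, and its other window held none of them either.

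Levels per gene length set the members far apart. PCNA was the most abundant transcript, with 194 ± 27.3 FPKM in EGLN3 vector cells and 206 ± 22.9 FPKM in empty vector cells (SD, n = 3 each). The salvage enzyme TK1 followed with 79.2 ± 33.5 FPKM in EGLN3 vector cells and 92.0 ± 14.4 FPKM in empty vector cells, and MCM7 with 75.9 ± 16.4 FPKM and 92.5 ± 7.16 FPKM in the same order of groups (SD, n = 3 each). Within each group the levels of TK1 and MCM7 did not differ from each other beyond their spread. At the low end stood GINS3 with 2.56 ± 0.333 FPKM in EGLN3 vector cells and 2.31 ± 0.377 FPKM in empty vector cells, next to POLA2 and POLE2, whose values overlapped with it (SD, n = 3 each). The median member had a mean of 15.7 FPKM over the 6 libraries.

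**Figure D3:**
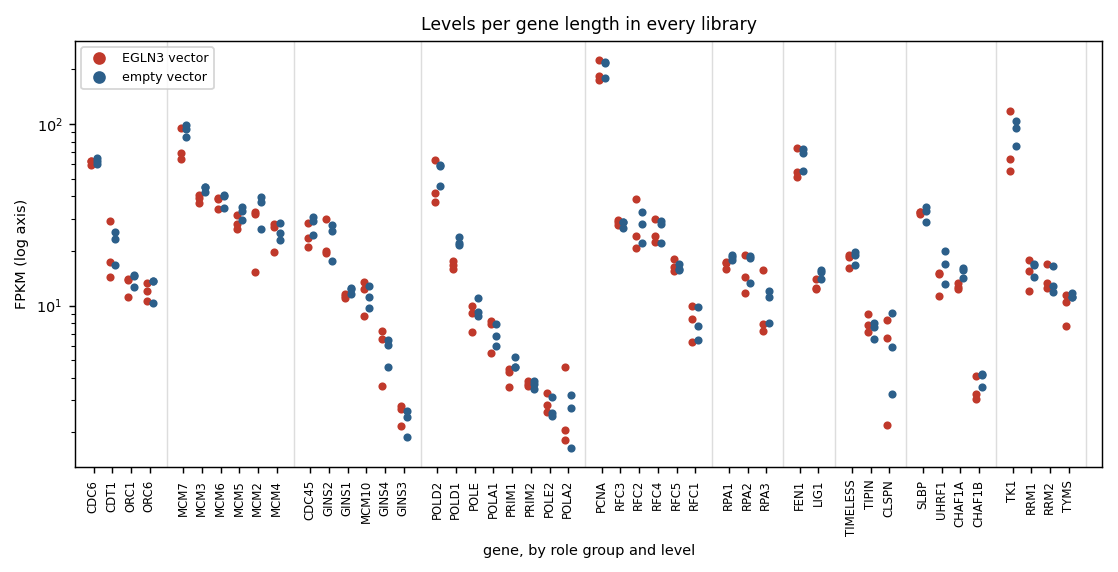
FPKM of each replication gene in each library on a log axis, genes ordered by level within their role group; each dot is 1 library, EGLN3 vector in red to the left and empty vector in blue to the right. PCNA stands highest and GINS3, POLA2 and POLE2 lowest, and the groups overlap for most genes.

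Origin licensing was described by ORC1 and ORC6, subunits of the origin recognition complex, and by CDC6 and CDT1, which load the helicase. All 4 had a lower fitted level in EGLN3 vector cells, with a median log2 fold change of -0.09, and none passed the test. ORC1, the ATPase subunit, had 35.4, 44.8 and 44.2 CPM in the EGLN3 vector libraries, against 47.0, 47.2 and 40.5 CPM in the empty vector libraries. Empty vector replicate 3 lay among the EGLN3 vector values, and the log2 fold change was -0.11 (SE 0.15). CDC6 had 333, 350.5 and 354 CPM in the EGLN3 vector libraries and 356, 366 and 338 CPM in the empty vector libraries. It was the steadiest member, with 1.10-fold between its highest and lowest library and a log2 fold change of -0.03 (SE 0.12). CDT1, with 98.0, 58.1 and 48.8 CPM in EGLN3 vector libraries and 56.8, 78.1 and 86.1 CPM in empty vector libraries, spread more widely within each group than the group means of 68.3 and 73.7 CPM lay apart.

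The MCM2-7 genes encode the 6 subunits of the replicative helicase ring. All 6 had a lower fitted level in EGLN3 vector cells, with a median log2 fold change of -0.19, and none passed the test. MCM3 had 135, 149 and 145 CPM in the EGLN3 vector libraries, against 168, 165 and 155 CPM in the empty vector libraries. The groups did not overlap, and the difference of -0.19 on the log2 scale (SE 0.12; unadjusted p = 0.15 in edgeR) was below 2 standard errors. MCM7 had 416, 306 and 285 CPM in the EGLN3 vector libraries and 378, 437 and 417 CPM in the empty vector libraries. Here EGLN3 vector replicate 1 reached the empty vector range while replicates 2 and 3 were below it, and the log2 fold change was -0.29 (SE 0.18). Without EGLN3 vector replicate 1 it was -0.46, and without replicate 3 it was -0.19. MCM5 had 231, 209 and 197 CPM in the EGLN3 vector libraries and 221, 259.9 and 246 CPM in the empty vector libraries, with overlap through EGLN3 vector replicate 1 and a log2 fold change of -0.19 (SE 0.13).

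The other MCM genes differed less clearly between the groups. MCM2 had the largest fitted change of the ring, -0.37, but also the largest error (SE 0.32). Its 74.9 CPM in EGLN3 vector replicate 1 stood well below the 159 and 164 CPM of EGLN3 vector replicates 2 and 3, which were within the 131 to 198 CPM of the empty vector libraries. For MCM4 the log2 fold change was -0.05 (SE 0.18) and for MCM6 it was -0.04 (SE 0.13). MCM7 sits on the minus strand at chr7:100092728-100101940 and shares 8.94% of its exon bases with AP4M1 on the opposite strand. MCM2 shares 22.7% of its exon bases with AC023593.1, also on the opposite strand. Whether counting used strand is not stated, so for MCM7 and MCM2 shared reads could belong to either gene.

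**Figure D4:**
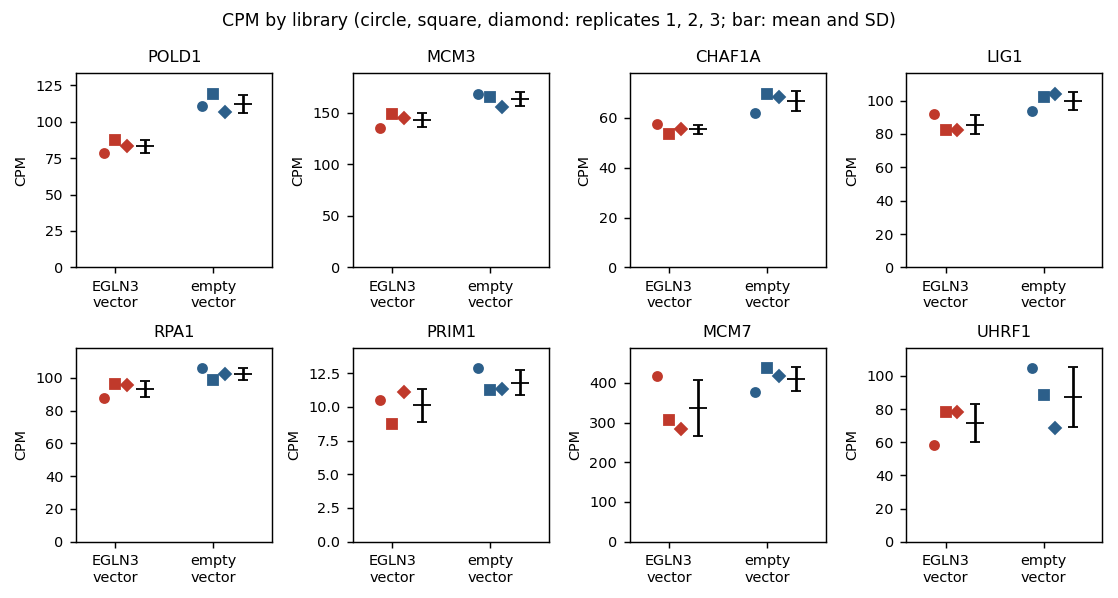
CPM of 8 replication genes in each library, EGLN3 vector in red to the left and empty vector in blue to the right, with circle, square and diamond for replicates 1, 2 and 3 and a bar for mean and SD (n = 3). The groups do not overlap for POLD1, MCM3, CHAF1A, LIG1, RPA1 and PRIM1, and they overlap for MCM7 and UHRF1.

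Helicase activation was represented by MCM10, CDC45 and the 4 GINS subunits, which join the MCM ring to form the active helicase. Of these 6 genes, 3 had a lower and 3 a higher fitted level, with a median log2 fold change of -0.01, and none passed the test. CDC45 had 81.5, 67.9 and 61.1 CPM in the EGLN3 vector libraries, against 71.3, 83.7 and 88.8 CPM in the empty vector libraries. EGLN3 vector replicate 1 lay above empty vector replicate 1, and the log2 fold change was -0.21 (SE 0.16). GINS2 had 97.8, 64.0 and 66.4 CPM in the EGLN3 vector libraries and 58.5, 84.8 and 91.1 CPM in the empty vector libraries, so that its highest and lowest libraries were both replicate 1 (log2 fold change -0.04, SE 0.24). MCM10 and GINS1, GINS3 and GINS4 had log2 fold changes between -0.10 and 0.14, each with overlapping groups.

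The polymerase and primase genes held the clearest single difference. POLD1, the catalytic subunit of DNA polymerase delta, which copies the lagging strand and proofreads, had 78.6, 87.7 and 83.4 CPM in the EGLN3 vector libraries, against 110.5, 119 and 107 CPM in the empty vector libraries. Every EGLN3 vector library was below every empty vector library, with a gap wider than the range inside either group. POLD1 averaged 83.2 ± 4.52 CPM in EGLN3 vector cells and 112 ± 6.33 CPM in empty vector cells (SD, n = 3 each). This was a log2 fold change of -0.43 (SE 0.12, 95% interval -0.72 to -0.14), a difference of -25.7% with an interval of -39.2% to -9.32%. Over all 15726 genes it did not pass (edgeR quasi-likelihood test, unadjusted p = 0.0099, adjusted p = 1.00). Leaving out each library in turn gave -0.47 to -0.37, while removing each library's trends with GC content and gene length gave -0.25. POLD1 (ENSG00000062822) lies at chr19:50384204-50418016 on the plus strand of hg38 and shares 8.64% of its exon bases with AC020909.1 on the same strand.

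The other 7 genes of this group went both ways, and over all 8 the median log2 fold change was -0.07 with 4 lower and 4 higher. POLD2, the accessory subunit of polymerase delta, had 234, 155 and 139 CPM in the EGLN3 vector libraries and 171, 221 and 219.6 CPM in the empty vector libraries. Its groups overlapped through EGLN3 vector replicate 1, with a log2 fold change of -0.21 (SE 0.23) that was -0.46 without that library and -0.07 without EGLN3 vector replicate 3. POLE, the catalytic subunit of the leading-strand polymerase epsilon, had 119.6, 153 and 169 CPM in the EGLN3 vector libraries and 186, 155 and 147 CPM in the empty vector libraries (log2 fold change -0.15, SE 0.18). Without EGLN3 vector replicate 1 the POLE value was near 0. PRIM1, the catalytic primase subunit, had 10.5, 8.71 and 11.1 CPM in the EGLN3 vector libraries, against 12.9, 11.2 and 11.3 CPM in the empty vector libraries. The PRIM1 groups were apart by a narrow margin, and its log2 fold change was -0.22 (SE 0.16). PRIM1 shares 14.9% of its exon bases with AC117378.1 on the same strand and 5.42% with HSD17B6 on the opposite strand, so its count is uncertain. The remaining 4, POLA1, POLA2, PRIM2 and POLE2, had a higher fitted level in EGLN3 vector cells, by 0.01 to 0.15 on the log2 scale, with overlapping groups.

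The sliding clamp PCNA, which tethers polymerases to DNA, had 333, 271 and 260.4 CPM in the EGLN3 vector libraries, against 269, 324 and 327 CPM in the empty vector libraries. The highest of all 6 libraries was an EGLN3 vector one and the groups overlapped, with a log2 fold change of -0.09 (SE 0.16, 95% interval -0.46 to 0.29). PCNA and RFC together had a median of 0.02. Of the 5 RFC subunits that load the clamp, RFC4 had a lower and the other 4 a higher fitted level. Their log2 fold changes lay between -0.06 and 0.03, and RFC3 and RFC5 were steady, with 1.11-fold and 1.16-fold between the highest and lowest library. RPA, the heterotrimer that covers single-stranded DNA, had 3 lower members and a median log2 fold change of -0.13, which was -0.35 without EGLN3 vector replicate 1 and -0.02 without EGLN3 vector replicate 3. RPA1, its large subunit, had 87.4, 96.3 and 95.8 CPM in the EGLN3 vector libraries, against 106, 98.4 and 102 CPM in the empty vector libraries. The RPA1 groups did not overlap, and the log2 fold change was -0.13 (SE 0.12). RPA2 and RPA3 had overlapping groups, and RPA3 reached 50.9 CPM in EGLN3 vector replicate 1 against 23.7 to 39.0 CPM in the other libraries.

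Okazaki fragments, the short pieces of the lagging strand, are trimmed by the nuclease FEN1 and joined by the ligase LIG1, both lower in fitted level. LIG1 had 91.9, 82.5 and 82.1 CPM in the EGLN3 vector libraries, against 93.8, 102 and 104 CPM in the empty vector libraries. The groups did not overlap, although the highest EGLN3 vector library came close to the lowest empty vector library, giving a log2 fold change of -0.22 (SE 0.12) and an unadjusted p of 0.11 in edgeR. FEN1 had 184, 137 and 128 CPM in the EGLN3 vector libraries and 139, 182 and 172 CPM in the empty vector libraries, with overlap and a log2 fold change of -0.13 (SE 0.19), or -0.30 without EGLN3 vector replicate 1 and -0.04 without EGLN3 vector replicate 3. Among the fork protection genes, CLSPN, which relays the replication checkpoint to CHEK1, was the most variable member. It had 11.9, 36.1 and 45.8 CPM in the EGLN3 vector libraries and 49.9, 32.2 and 17.8 CPM in the empty vector libraries. With 4.18-fold between its highest and lowest library, the 95% interval of its log2 fold change (-0.09, SE 0.55) ran from -1.40 to 1.22. Its partners differed less, TIMELESS with 93.6, 109 and 113 CPM in EGLN3 vector libraries and 117, 111 and 98.0 CPM in empty vector libraries, and TIPIN with 24.9, 19.8 and 22.0 CPM and 18.3, 21.1 and 22.2 CPM in the same order of groups. Both pairs of groups overlapped, with log2 fold changes of -0.05 (SE 0.14) for TIMELESS and 0.12 (SE 0.15) for TIPIN. TIPIN shares 21.0% of its exon bases with RPL9P25 on the same strand, so its count is uncertain.

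Chromatin assembly behind the fork had the lowest median of the 10 role groups, with a log2 fold change of -0.23 over 4 genes, 3 of them lower. CHAF1A, the large subunit of the histone chaperone CAF-1, had 57.3, 53.5 and 55.4 CPM in the EGLN3 vector libraries, against 62.0, 69.5 and 68.4 CPM in the empty vector libraries. The groups did not overlap, with means of 55.4 ± 1.90 CPM in EGLN3 vector cells and 66.6 ± 4.07 CPM in empty vector cells (SD, n = 3 each). CHAF1A had the lowest unadjusted p after POLD1 among the members, 0.064 in edgeR, at a log2 fold change of -0.27 (SE 0.12), which was -0.16 once trends with GC content and gene length were removed. CHAF1B, the CAF-1 middle subunit, overlapped between groups with a log2 fold change of -0.20 (SE 0.16). UHRF1, which brings DNMT1 to newly copied DNA, had 58.6, 78.4 and 78.0 CPM in the EGLN3 vector libraries and 105, 88.2 and 68.5 CPM in the empty vector libraries. Empty vector replicate 3 lay inside the EGLN3 vector range, and the log2 fold change was -0.28 (SE 0.20). SLBP, which binds histone mRNA, had a log2 fold change of 0.01 (SE 0.13).

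Nucleotide supply was described by RRM1 and RRM2, the subunits of ribonucleotide reductase, and by thymidylate synthase TYMS and thymidine kinase TK1. Of these 4, 3 had a lower fitted level, and the median was -0.14 on the log2 scale. TK1 had 219.5, 121 and 105 CPM in the EGLN3 vector libraries, against 144, 179.5 and 196 CPM in the empty vector libraries. The highest and the lowest library both belonged to the EGLN3 vector group, and the log2 fold change was -0.22 (SE 0.30), or -0.60 without EGLN3 vector replicate 1 and -0.03 without EGLN3 vector replicate 3. TYMS had 19.1, 26.0 and 28.5 CPM in the EGLN3 vector libraries and 28.0, 29.2 and 27.7 CPM in the empty vector libraries. EGLN3 vector replicate 3 lay inside the narrow empty vector range, and the log2 fold change was -0.20 (SE 0.17). TYMS shares 39.1% of its exon bases with ENOSF1 on the opposite strand, so its count is uncertain. Ribonucleotide reductase differed little in fitted level, RRM1 by -0.08 (SE 0.18) and RRM2 by 0.05 (SE 0.18) on the log2 scale. The RRM2 count is uncertain too, as 20.2% of its exon bases are shared with AC007240.1 on the same strand.

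Subunits of the same complex did not keep a fixed ratio across libraries. The ratio of POLA1 to POLA2 in FPKM, the catalytic to the accessory subunit of polymerase alpha, was 1.2, 3.86 and 4.52 in EGLN3 vector replicates 1, 2 and 3. In empty vector replicates 1, 2 and 3 it was 4.80, 2.52 and 1.88, so EGLN3 vector replicate 1 and empty vector replicate 3 were low in this ratio and the groups overlapped. GINS2 over GINS4 was 8.29, 2.97 and 2.78 in the EGLN3 vector libraries and 2.74, 4.23 and 6.01 in the empty vector libraries, with the order of the libraries turned round. POLA2 shares 35.1% of its exon bases with AP000944.2 on the same strand. GINS4 shares 21.2% with AC009630.2 on the opposite strand, so both of these ratios are uncertain. CHAF1A over CHAF1B was steadier, at 3.23, 3.81 and 4.16 in the EGLN3 vector libraries and 3.99, 3.84 and 3.80 in the empty vector libraries. Of 14 ratios taken, CDC6 over CDT1 among them, PRIM2 over PRIM1 was the one whose groups lay apart. It was 0.844, 1.04 and 0.854 in the EGLN3 vector libraries and 0.742, 0.762 and 0.804 in the empty vector libraries. PRIM1 was itself 1 of the 6 members whose groups lay apart, as did 6.26% of all tested genes. Whether 1 of 14 is more than ratios of other genes would give was not tested.

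The members were divided evenly along the first component, 24 being higher toward EGLN3 vector replicate 1 and 22 toward the other end, close to the 50% of all tested genes that were higher toward that library. Across genes, the weight on this component fell with gene length, with a Spearman correlation of -0.456 over the 46 members and -0.448 over all 15726 genes. TK1, RPA3 and PCNA had positive weights and CLSPN, MCM2 and POLE negative ones. Single members departed from this order: the long genes MCM5 and LIG1 (7338 and 6576 bases) had positive weights. The short genes TYMS and PRIM1 (2470 and 2437 bases) had negative ones. POLA2, with the largest positive weight, shares 35.1% of its exon bases with AP000944.2 on the same strand. The log2 fold change itself went with the GC content of the transcript, with a Spearman correlation of -0.634 over the 46 members and -0.476 over all tested genes. POLD1 had the highest GC content of the members, 65.0%, and CDT1 a similar one with a log2 fold change of -0.11. After removal of the trends with GC content and gene length, the correlation was -0.264 over members and -0.0145 over all genes, and 38 of 46 members were lower. Of the 22 genes given in full here, 9 then had a fold change smaller by over 1.5 times, among them POLD1, CHAF1A, LIG1, MCM5 (-0.10), POLD2 (-0.11) and TK1 (-0.12). These correlations run across genes measured in the same 6 libraries, and genes are not independent replicates.

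**Figure D5:**
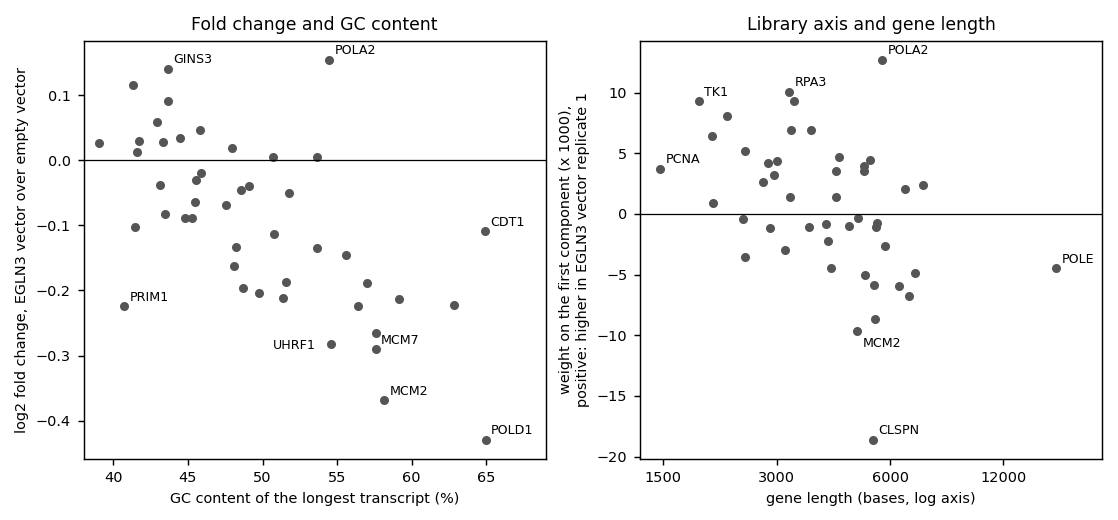
Left, log2 fold change of each of the 46 replication genes, EGLN3 vector over empty vector, against the GC content of its longest transcript; right, the gene's weight on the first principal component of all tested genes against gene length on a log axis. Members rich in GC such as POLD1, MCM2 and MCM7 had the lowest fold changes. CLSPN, MCM2 and POLE had negative weights, while MCM5 and LIG1, both longer than CLSPN and MCM2, had positive ones.

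When 1 surrogate variable, a number per library estimated from the counts to take up variation the groups do not explain, was added to the edgeR fit, 11 members were lower and 0 higher at an adjusted p under 0.05. In that fit 4.71% of all tested genes were called, 3.6% lower and 1.11% higher, and 35 of 46 members had a negative log2 fold change, against 52.1% of all tested genes. The 11 were POLD1, MCM7, UHRF1, CHAF1A, TK1, LIG1, POLD2, MCM3, POLE, MCM5 and CDC45. Their fold changes stayed near those above, from -0.43 for POLD1 (adjusted p = 0.00017) and -0.29 for MCM7 (adjusted p = 0.0026) to -0.18 for MCM5 (adjusted p = 0.042), all by edgeR with the surrogate variable. MCM2 had a larger fitted change than POLD1, -0.48 (SE 0.11), but was not called (adjusted p = 0.071 in the same edgeR fit). The smaller errors of this fit, 0.06 for POLD1 against 0.12 without the variable, leave out the uncertainty of the variable itself, so its p-values may be too small.

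With the trends with GC content and gene length also removed, POLD1 and MCM7 were the 2 members called lower and 0 were called higher, where 0.973% of 15719 genes were called, 0.662% lower and 0.312% higher. In this fit 38 of 46 members had a negative log2 fold change, against 51.3% of all genes. POLD1 then had a log2 fold change of -0.27 (SE 0.05; edgeR with the surrogate variable and trends, adjusted p = 0.011) and MCM7 one of -0.20 (SE 0.05, adjusted p = 0.035 in the same edgeR fit). UHRF1 (adjusted p = 0.061), CDC45 (0.098) and MCM3 (0.10) came next in that edgeR fit and were not called. Nor was MCM2 (adjusted p = 0.17 in that edgeR fit), whose fitted change of -0.34 (SE 0.09) was larger than that of POLD1. The part of GC content, gene length and the first component in these differences was not tested beyond these fits.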

How the data were processed

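RNA was sequenced from 3 EGLN3 vector and 3 empty vector libraries of NCI-N87 cells, grouped by the labels. The deposited gene counts are whole numbers with no scaling, and hg38, HISAT2 2.0.5, DESeq2 1.20.0 and featureCounts 1.5.0-p3 appear in the submitters' processing notes without their roles. Which annotation was counted, and whether strand was used, is not given in the sources here. In the FPKM deposited by the authors each count was divided by the gene's length and a library factor, and these served for levels between genes. Coordinates of all 46 genes in the table equal those of GENCODE release 29, which also gave GC content and exon overlaps.

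In R 4.3.3, edgeR 4.0.16 was run on the counts with its filterByExpr filter, TMM scaling and the robust quasi-likelihood test, with p-values adjusted by Benjamini-Hochberg over all tested genes. The standard error is the log2 fold change over the square root of F. Alternatives were DESeq2 1.42.0, limma 3.58.1 (voom, and log2 FPKM with a pseudocount of 1 or 0.1), other scalings and filters, the replicate number as a block, GC and length trends (splines with 5 degrees of freedom), 1 surrogate variable (sva 3.50.0) and leaving out each library. The surrogate variable from scaled counts was added after the data had been seen. Some of these fits were also run on simulated data, with no result given here, so nothing is concluded from that step.

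Genes given in full are, per role group, the one with the smallest p and the one with the highest CPM, those whose groups do not overlap, and those called in any alternative. The members, role groups and other lists were chosen with earlier results of these data known. Intervals of counting error do not cover differences between cultures. Like-named pseudogenes of 8 members held 0 to 2 counts per library. Depth allowed each member to be tested, and 21 members share exon bases with another gene. One leukocyte marker gene of the list is not reported here.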

Additional observations from a re-analysis of the deposited data

How the results depend on the processing

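The number of genes called, 1 in the edgeR fit without covariates, was 741 with 1 surrogate variable, 713 with the variable taken from scaled counts, 153 with the variable and GC and length trends, and 147 with the scaled variable and trends. It was 0 by limma-voom, by limma on log2(FPKM + 1) with or without a minimum, and with the replicate number as a block, and 0 to 1 when 1 library was left out. Members called were 11, 11, 2 and 3 in the 4 surrogate variable fits in that order, and 0 in each fit that left out 1 library. CLSPN took the place of CDC45 among the 11 of the scaled variable, and UHRF1 joined POLD1 and MCM7 with trends. EGLN3 itself missed the threshold by limma-voom (adjusted p = 0.23), by limma on log2(FPKM + 1) with and without a minimum (0.092 and 0.30) and with the replicate block (0.26). The median log2 fold change of the members kept its sign in each alternative, from -0.119 to -0.0382 when 1 library was left out, with 28 to 33 members lower. GINS2 turned to 0.00987 with the scaled surrogate variable. Leaving out 1 library turned the sign in at least 1 fit for CDC6 (-0.0618 to 0.0108), CLSPN (-0.471 to 0.323), GINS2 (-0.249 to 0.0841), ORC1 (-0.184 to 0.00193) and TIMELESS (-0.12 to 0.0396). The cause was not tested. Same-numbered libraries deviated in opposite directions (r = -0.793, -0.176 and -0.674), and the replicate block gave a members' median of -0.10. The highest correlations were between EGLN3 vector replicate 3 and empty vector replicate 1 (r = 0.752) and between EGLN3 vector replicate 1 and empty vector replicate 3 (r = 0.720). Whether same-numbered libraries were handled together was not tested. Of the 22 named members, 18 moved by over 1.5 times in at least 1 fit without a library, the others being POLD1, MCM3, CHAF1A and LIG1. So did 9 of 10 role-group medians, of which fork protection (-0.12 to 0.0401), helicase activation and GINS (-0.113 to 0.0386) and sliding clamp and RFC (-0.0944 to 0.0243) also changed sign. In the alternatives that kept all libraries, 7 of 510 fold changes and medians turned, GINS2 once and the sliding clamp and RFC median in the other 6.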

Other observations

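Genes that work beside the 46 members were listed by function, and none of them passed the edgeR test over all genes without a surrogate variable. Of 30 other replication genes, 14 were lower and 16 higher in EGLN3 vector cells, with a median log2 fold change of 0.01. CHTF18, which forms an alternative loader of PCNA, had 132, 104 and 95.4 CPM in the EGLN3 vector libraries, against 135, 162 and 149 CPM in the empty vector libraries. Its groups did not overlap, with a log2 fold change of -0.43 (SE 0.16; edgeR unadjusted p = 0.036). ORC4, a subunit of the origin recognition complex, lay apart in the other direction, with 54.3, 55.0 and 49.6 CPM in the EGLN3 vector libraries and 44.2, 49.0 and 48.6 CPM in the empty vector libraries (log2 fold change 0.17, SE 0.12). Over all tested genes 3.62% lay fully lower and 2.64% fully higher. In the edgeR fit with 1 surrogate variable 6 of these listed genes were called, all lower: CHTF18, RECQL4, DTYMK, DNMT1, E2F1 and MYBL2. These were 2 of 30 other replication genes and 1 of 10 other nucleotide supply genes. The rest were 1 of 9 other chromatin assembly genes and 2 of 15 E2F and DREAM regulators. Over all tested genes that fit called 3.6% lower and 1.11% higher. With GC and length trends also removed, CHTF18 (-0.28, adjusted p = 0.0037) and RECQL4 (-0.19, adjusted p = 0.042) were called by edgeR, beside POLD1 and MCM7 among the 46. With these trends removed 0.662% of all genes were called lower and 0.312% higher. The p-values of both surrogate variable fits may be too small. Of 10 other nucleotide supply genes, 5 were lower, and SAMHD1, which breaks down dNTPs, had 41.4, 43.0 and 51.7 CPM in the EGLN3 vector libraries and 41.4, 39.3 and 35.3 CPM in the empty vector libraries (log2 fold change 0.23, SE 0.15). Of 9 other chromatin assembly genes, 5 were lower, and SSRP1, a subunit of the FACT histone chaperone, had 290.5, 277 and 257 CPM in the EGLN3 vector libraries, all below the 303, 316 and 307 CPM of the empty vector libraries (log2 fold change -0.17, SE 0.12). Of 15 E2F and DREAM regulators, 5 were lower and 10 higher, with a median of 0.04, and MYBL2 had 190.1, 146 and 139.9 CPM in the EGLN3 vector libraries and 169, 198 and 197 CPM in the empty vector libraries (log2 fold change -0.24, SE 0.16).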
